A study of Homo sapiens with 9 samples.

Results

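The genes described here carry the interleukin-6 (IL-6) type cytokine signal in liver cells. They are 10 of the 24204 gene symbols measured, taken by name: the receptor chains IL6R, IL6ST, LIFR and OSMR, the kinases JAK1, JAK2 and TYK2, the transcription factor STAT3, and the regulators SOCS3 and PTPN11. All 10 were present in the data, and 9 of them were tested, the condition being an FPKM of 1 or more in 3 or more libraries of the 9, which SOCS3 did not meet. FPKM is the number of sequenced fragments of a gene, scaled for its length and for the mapped depth of the library.

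RNA-seq was performed on HepG2, an established human liver cancer cell line. There were 3 groups of 3 libraries. The first group received a lentiviral control hairpin (shCtrl), and the others received 1 of 2 short hairpin RNAs against TRIB3 (shTRIB3-1 and shTRIB3-2). All groups therefore shared infection for 48 h, puromycin selection for a further 48 h and collection as P2 cells. TRIB3 is a pseudokinase gene that responds to amino acid shortage. The labels describe high-glucose medium and mention no withdrawal of glutamine, and the study's discussion likewise speaks of TRIB3 depletion in cells that were not deprived of it. Its RNA-seq methods mention deprived HepG2 cells without saying which libraries these were. No source stated that the 3 libraries of a group came from separate cultures, so p-values measure only the spread between these libraries, which may be technical.

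IL-6 binds its receptor IL6R, and the complex then recruits IL6ST, better known as gp130, the signalling chain shared by the whole cytokine family. LIFR and OSMR are partner chains that join gp130 when LIF, oncostatin M or related ligands bind. JAK1, JAK2 and TYK2 sit on the receptor tails and phosphorylate them, STAT3 docks there, becomes phosphorylated and moves to the nucleus, and in hepatocytes it switches on acute-phase proteins such as haptoglobin and hepcidin. SOCS3 is a STAT3 target that blocks the kinases at gp130, and PTPN11 (the phosphatase SHP2) docks at the same tail and links it to the MAP kinase pathway. Transcript levels give no phosphorylation state, so the activity of the pathway was not measured.

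The hairpin targets are shown because they define the groups. Each is a stretch of 21 bases in the coding sequence of TRIB3 on the plus strand, located on GRCh38 (hg38), and neither occurs exactly in a GENCODE v44 transcript of any other gene.
shTRIB3-1, chr20:388072-388092, exon 2: tggatgacaacttagataccg
shTRIB3-2, chr20:391473-391493, exon 3: gccgtgctcttccgccagatg
TRIB3 FPKM was 67.9, 65.8 and 66.6 in the shCtrl libraries, 34.1, 32.7 and 34.0 with shTRIB3-1, and 20.6, 20.7 and 20.4 with shTRIB3-2. The groups did not overlap, and the mean level was 50.3% of shCtrl with the first hairpin and 30.8% with the second.

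Phosphorylated STAT3 binds DNA at a short palindrome, TTCNNNGAA, which reads the same on either strand. It was searched in the 250 bases before the canonical GENCODE v44 start of each gene on hg38. It occurs there in 5.67% of 20033 protein-coding genes and in 4.98% of the 10518 of them that were tested. The sequences below give elements of LIF, OSM, HAMP, ITIH4 and BIRC5 in capitals, with 10 bases on either side. They are examples and not a full list, chosen because they hold the element and are described with their values further on. No such element lies in that window of IL11, CLCF1, CTF1, SERPINA3, HP, CP, IL1RN, SERPINA1, KLF6 or BCL2L1, which are described there too.
LIF, chr22:30246953-30246961, minus strand: atcaatcaaaTTCTTAGAAgagggaaaaa
OSM, chr22:30267034-30267042, minus strand: gaagaacgaaTTCGAAGAAaacaggagga
OSM, chr22:30266948-30266956, minus strand: tggggtcatgTTCCCAGAAggcctgccct
HAMP, chr19:35282435-35282443, plus strand: cgccaccaccTTCTTGGAAatgagacaga
ITIH4, chr3:52830738-52830746, minus strand: agatcccaatTTCCCAGAAcctgccccca
BIRC5, chr17:78214053-78214061, plus strand: cctgcacgcgTTCTTTGAAagcagtcgag
Counting the base before the start as -1, the first base of the element lies at -93 in HAMP, -74 in ITIH4, -202 in LIF, -200 in BIRC5, and -191 and -105 in OSM. The study concerns G-quadruplex DNA, so the same windows were searched for 4 runs of at least 3 G separated by 1 to 7 bases on either strand. IL6ST, JAK1, LIFR and SOCS3 hold such a run, which is 40% of the 10 genes against 32.3% of all protein-coding windows and 36.6% of tested ones. A match of letters does not show that a protein binds or that a structure forms there.

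Library totals ran from 34206726 to 36311029 fragments, so depth differed little between groups. Of the 8 hepatocyte markers (ALB, AFP, TTR, APOA1, APOB, HNF4A, TF and SERPINA1) the lowest value in any library was 26.2 FPKM, of TTR. Their summed FPKM was 8198 to 8833 in shCtrl, 8501 to 8931 with shTRIB3-1 and 10677 to 10989 with shTRIB3-2. TTR had means of 27.9, 59.2 and 91.5 FPKM in the 3 groups and AFP of 195, 193 and 313, whereas HNF4A had 46.7, 39.8 and 44.5. The endothelial and stellate or fibroblast markers, 4 of 4 in each list, were below 1 FPKM in all libraries. Of 6 blood and Kupffer cell markers, PTPRC, MARCO and CD163 were below 1 FPKM throughout. LYZ stood at mean FPKM of 1080 in shCtrl, 509 with shTRIB3-1 and 597 with shTRIB3-2, CD14 at 1.10, 0.259 and 0.321, and CD68 at 31.8, 37.6 and 33.5. The summed FPKM of those 6 was 1056 to 1177 in shCtrl libraries, 532 to 559 with shTRIB3-1 and 611 to 650.3 with shTRIB3-2. That of the 3 cholangiocyte markers (KRT7, KRT19 and SOX9) was 269 to 285, 631 to 675 and 633 to 646, led by KRT19, while SOX9 had means of 41.2, 23.4 and 19.3 FPKM and KRT7 was below 1 FPKM in all libraries. The part of these shifts in the results was not tested, and in bulk RNA fewer cells of a type and less RNA per cell cannot be told apart.

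IL6R, which encodes the receptor chain that binds IL-6 itself, was the most strongly changed of the 10 genes and stood at about the same higher level with each hairpin. Its FPKM was 13.2, 13.3 and 12.7 in the shCtrl libraries, 32.1, 34.7 and 33.9 with shTRIB3-1, and 33.5, 32.7 and 34.4 with shTRIB3-2. All 6 knockdown libraries lay above all 3 controls, and the hairpins overlapped each other. The mean rose from 13.0 ± 0.330 (SD, n = 3) to 33.6 ± 1.31 and 33.5 ± 0.858, which is 2.57 times the control level with either hairpin. On the log2(FPKM + 0.1) scale, which understates the change of low genes, the difference was 1.36 (SE 0.04) with shTRIB3-1 (limma, Benjamini-Hochberg adjusted p = 3.04e-11) and 1.36 (SE 0.04) with shTRIB3-2 (adjusted p = 2.08e-11). Between the hairpins the log2 difference was -0.002, with a 95% confidence interval from -0.09 to 0.08.

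**Figure D1:**
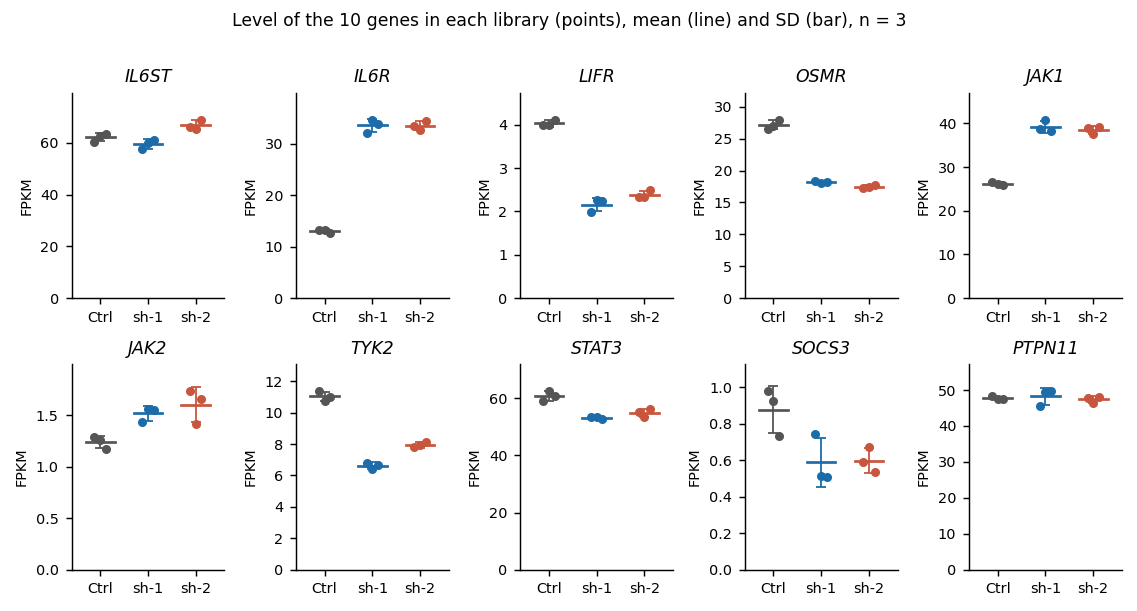
FPKM of the 10 genes, 1 panel a gene with its own axis from 0, in the 3 libraries of shCtrl (grey), shTRIB3-1 (blue) and shTRIB3-2 (red). Points are libraries, lines are means and bars are SD. IL6R, JAK1 and JAK2 lie higher in all 6 knockdown libraries, LIFR, OSMR, TYK2 and STAT3 lie lower in all 6, and PTPN11 overlaps in all 3 groups.

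The signalling chain gp130 (IL6ST) moved little. IL6ST FPKM was 60.4, 62.6 and 63.4 in shCtrl, 57.5, 60.0 and 61.0 with shTRIB3-1, and 66.1, 65.5 and 69.0 with shTRIB3-2. The shTRIB3-1 libraries overlapped the controls, and the shTRIB3-2 libraries lay above every library of the other groups. The log2 difference from shCtrl was -0.06 with shTRIB3-1 (adjusted p = 0.116), whereas with shTRIB3-2 it was 0.11 (adjusted p = 0.0143, limma). This small rise with shTRIB3-2 lost the threshold without shCtrl replicate 1 (0.08, adjusted p = 0.0506) or shTRIB3-2 replicate 3 (0.08, adjusted p = 0.0668), and over all alternatives its adjusted p ran from 0.00161 to 0.0886.

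The partner chains fell. LIFR, through which LIF signals together with gp130, had FPKM of 3.99, 3.98 and 4.12 in shCtrl, 1.99, 2.25 and 2.23 with shTRIB3-1, and 2.34, 2.33 and 2.49 with shTRIB3-2. Every knockdown library was below every control, and the mean reached 53.5% and 59.2% of shCtrl. The log2 difference was -0.87 (SE 0.07, adjusted p = 3.20e-07) and -0.73 (SE 0.07, adjusted p = 1.47e-06). OSMR, the chain that completes the oncostatin M receptor, had FPKM of 26.5, 27.0 and 28.0 in shCtrl, 18.4, 18.1 and 18.1 with shTRIB3-1, and 17.2, 17.4 and 17.7 with shTRIB3-2. Again no knockdown library reached the controls, with log2 differences of -0.58 (SE 0.03, adjusted p = 1.22e-08) and -0.64 (SE 0.03, adjusted p = 4.19e-09).

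Among the kinases, JAK1 rose, JAK2 rose slightly from a low level and TYK2 fell. JAK1, the kinase on which gp130 signalling mainly depends, had FPKM of 26.5, 26.2 and 25.8 in shCtrl, 38.7, 40.9 and 38.2 with shTRIB3-1, and 38.9, 37.5 and 39.2 with shTRIB3-2. The knockdown libraries all stood above the controls, at 149.9% and 147.2% of the control mean. The log2 difference was 0.58 (SE 0.03, adjusted p = 1.62e-08) and 0.56 (SE 0.03, adjusted p = 2.06e-08).

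JAK2, which also serves growth hormone and erythropoietin receptors, was the least abundant kinase. Its FPKM was 1.29, 1.26 and 1.17 in shCtrl, 1.44, 1.57 and 1.55 with shTRIB3-1, and 1.73, 1.41 and 1.66 with shTRIB3-2, resting on 319 to 450 fragments a library. The groups did not overlap with shCtrl, but the log2 difference of 0.27 with shTRIB3-1 (SE 0.10, adjusted p = 0.0285) did not hold when single libraries were left out. It was 0.28 without shCtrl replicate 2 (adjusted p = 0.0532), 0.24 without shCtrl replicate 3 (0.0898), 0.25 without shTRIB3-1 replicate 2 (0.0783) and 0.26 without shTRIB3-1 replicate 3 (0.0757), and over all alternatives the adjusted p ran from 0.00436 to 0.0927. With shTRIB3-2 the log2 difference was 0.34 (SE 0.10, adjusted p = 0.00869), and over all alternatives the adjusted p ran from 8.58e-04 to 0.0402.

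TYK2, which is shared with interferon and IL-12 type receptors, had FPKM of 11.4, 10.7 and 10.99 in shCtrl, 6.81, 6.38 and 6.69 with shTRIB3-1, and 7.80, 7.92 and 8.16 with shTRIB3-2. The 3 groups were fully separated, with shTRIB3-1 lowest. The log2 difference from shCtrl was -0.73 (SE 0.05, adjusted p = 2.52e-08) and -0.47 (SE 0.05, adjusted p = 1.31e-06), and that between the hairpins was 0.26 (SE 0.05, adjusted p = 6.21e-04). TRIB3 itself was lower with shTRIB3-2, so the larger fall of TYK2 accompanied the weaker knockdown.

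STAT3 fell by a small amount with each hairpin. Its FPKM was 59.1, 62.4 and 60.6 in shCtrl, 53.2, 53.4 and 52.6 with shTRIB3-1, and 55.2, 53.2 and 56.1 with shTRIB3-2. No knockdown library reached the lowest control, and the means were 87.5% and 90.4% of shCtrl. The log2 difference was -0.19 (SE 0.03, adjusted p = 1.38e-04) and -0.15 (SE 0.03, adjusted p = 0.00115).

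SOCS3, the feedback inhibitor, was below 1 FPKM in every library, so it did not meet the filter and was not tested with the other genes. Its FPKM was 0.979, 0.925 and 0.731 in shCtrl, 0.744, 0.516 and 0.508 with shTRIB3-1, and 0.589, 0.671 and 0.534 with shTRIB3-2. These values rest on 99, 95 and 74 fragments in shCtrl, 72, 50 and 50 with shTRIB3-1, and 57, 66 and 53 with shTRIB3-2. The shTRIB3-1 libraries overlapped shCtrl and the shTRIB3-2 libraries lay just below it. In a fit over all genes above 0, without the filter, the log2 difference was -0.51 (SE 0.18, adjusted p = 0.0506) and -0.48 (SE 0.18, adjusted p = 0.0647), so neither passed.

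PTPN11 showed no difference larger than the spread between libraries. Its FPKM was 48.2, 47.5 and 47.6 in shCtrl, 45.4, 49.5 and 49.6 with shTRIB3-1, and 47.8, 46.4 and 48.1 with shTRIB3-2. The groups overlapped throughout. The log2 difference was 0.01 with a 95% confidence interval from -0.07 to 0.09, and -0.01 with an interval from -0.09 to 0.07 (adjusted p = 0.789 for each, limma).

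Of the 9 tested genes, 7 passed an adjusted p of 0.05 with shTRIB3-1, 3 higher and 4 lower, where 74.4% of all 11265 tested genes passed (32.9% higher and 41.5% lower). With shTRIB3-2, 8 passed, 4 higher and 4 lower, where 75.9% of all tested genes passed (35.4% higher and 40.5% lower). The same 7 genes passed in the same direction with each hairpin, namely IL6R, JAK1 and JAK2 higher and LIFR, OSMR, TYK2 and STAT3 lower, where 62.4% of all tested genes did so (28.1% higher and 34.3% lower). These shares lie near the background, so the number of changed genes does not set the pathway apart. Requiring also an absolute log2 difference above 1, IL6R alone passed with each hairpin, where 11.5% of all tested genes passed with the first (5.39% higher, 6.1% lower). With the second 12.3% of all passed (6.06% higher, 6.27% lower), and 4.32% were higher with both. The median log2 difference of the 9 genes was -0.06 and -0.01, beside -0.06 and -0.03 over all tested genes. Both hairpins were compared with the same 3 shCtrl libraries, so their results are not independent.

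Groups that did not overlap were counted as well. Libraries were separated from shCtrl for 7 of the 9 genes with shTRIB3-1 and 8 with shTRIB3-2, where 77.2% and 77.4% of all tested genes were. Between the hairpins, 4 of the 9 were separated where 54.5% of all tested genes were, and 2 of the 9, IL6ST (0.17, adjusted p = 0.00180) and TYK2, passed an adjusted p of 0.05, both higher with shTRIB3-2, where 45.8% of all did (25.1% higher and 20.7% lower). None of the 9 passed with the fold threshold between hairpins, where 2.08% of all did.

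**Figure D2:**
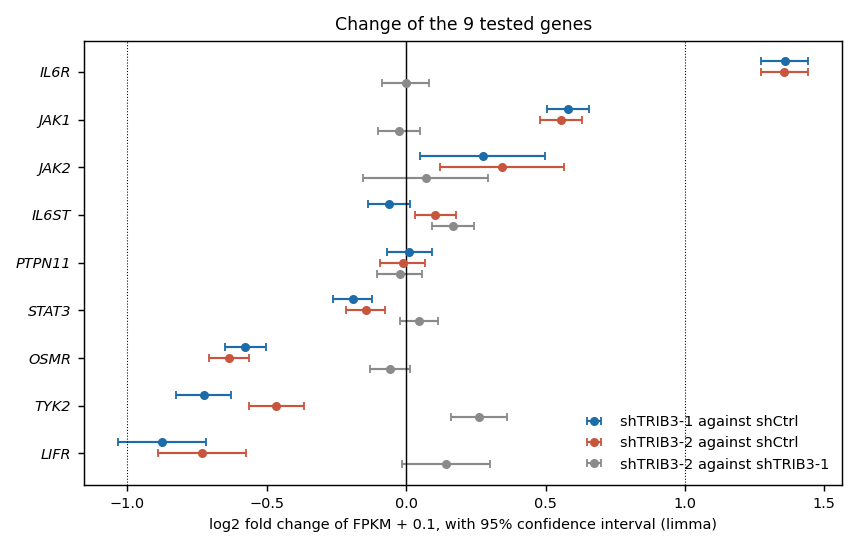
Log2 difference in FPKM + 0.1 (horizontal axis) of the 9 tested genes for shTRIB3-1 against shCtrl (blue), shTRIB3-2 against shCtrl (red) and shTRIB3-2 against shTRIB3-1 (grey), with 95% confidence intervals from limma. Dotted lines mark -1 and 1; only IL6R lies beyond them, and the grey intervals exclude 0 for IL6ST and TYK2.

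FPKM is scaled by gene length, so levels can be ordered between genes as far as the length used is right. That length was 5550 bases for JAK1, which has 13174 exon bases in GENCODE v44, and 6896 for OSMR, which has 7174. The spread between libraries does not cover this uncertainty, so the order of close neighbours such as OSMR and JAK1 is not secure. In shCtrl the order of mean FPKM was IL6ST 62.2, STAT3 60.7, PTPN11 47.8, OSMR 27.2, JAK1 26.2, IL6R 13.0, TYK2 11.03, LIFR 4.03, JAK2 1.24 and SOCS3 0.878. IL6ST and STAT3 did not differ beyond the spread of their libraries, and the ranges of the other neighbours did not overlap, although those of OSMR and JAK1 almost met. With shTRIB3-1, JAK1 (39.3) and IL6R (33.6) stood above OSMR (18.2), whose order was the reverse in shCtrl. With shTRIB3-2 the same 3 genes were at 38.5, 33.5 and 17.5.

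By Euclidean distance between log2(FPKM + 0.1) values centred on shCtrl, over the 9 libraries, the genes nearest to IL6R were ADCY7 (0.112), an adenylate cyclase, ARG2 (0.167), the mitochondrial arginase, and MAFF (0.199), a small Maf transcription factor. ADCY7 mean FPKM was 4.09 in shCtrl, 10.5 with shTRIB3-1 and 10.7 with shTRIB3-2. The nearest to LIFR were TRIQK (0.139), RFX7 (0.171), a transcription factor, and PCBP2 (0.176), an RNA-binding protein whose mean FPKM was 141, 77.6 and 83.2. Likeness here is only the pattern over the same 9 libraries.

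Several ligands of the family rose. Of 10 ligand genes, 5 were tested, and 4 of these, IL11, LIF, CLCF1 and CTF1, were higher with each hairpin. IL11, a cytokine that signals through its own receptor and gp130, had 24, 31 and 20 fragments in shCtrl, 321, 285 and 227 with shTRIB3-1, and 419, 395 and 495 with shTRIB3-2. Its mean FPKM was 0.292, 3.39 and 5.28, and the log2 difference was 3.15 (SE 0.15, adjusted p = 1.87e-09) and 3.79 (SE 0.15, adjusted p = 3.05e-10). IL11 was tested only because its knockdown libraries passed the filter, since it was below 1 FPKM in all controls.

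LIF, leukaemia inhibitory factor, had FPKM of 6.597, 6.398 and 6.675 in shCtrl, 12.9, 12.5 and 13.2 with shTRIB3-1, and 14.5, 14.7 and 15.0 with shTRIB3-2. The groups were fully separated, with log2 differences from shCtrl of 0.96 (adjusted p = 6.58e-10) and 1.16 (adjusted p = 9.80e-11). CLCF1, a ligand of the CNTF receptor complex, had FPKM of 2.09, 1.47 and 1.11 in shCtrl, 5.08, 4.34 and 5.12 with shTRIB3-1, and 3.997, 4.789 and 4.795 with shTRIB3-2. The knockdown libraries all lay above the controls, with log2 differences of 1.62 (adjusted p = 2.67e-06) and 1.52 (adjusted p = 4.23e-06). CTF1, cardiotrophin-1, changed by 0.46 (adjusted p = 0.00963) and 0.67 (adjusted p = 8.16e-04) from a mean FPKM of 1.03. Only 2 of its shCtrl libraries reached 1 FPKM, so it too met the filter through the knockdown libraries.

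IL6 itself was represented by 1 fragment in 1 of the 9 libraries, an shTRIB3-1 library, so no comparison of it was possible at this depth. OSM had 2, 0 and 1 fragments in shCtrl, 7, 6 and 3 with shTRIB3-1, and 6, 5 and 6 with shTRIB3-2. EBI3, a subunit of IL-27, had 2, 6 and 4 fragments in shCtrl, 14, 13 and 9 with shTRIB3-1, and 16, 14 and 22 with shTRIB3-2. Both were below the filter and their knockdown libraries lay above the controls. CNTF and IL27 had at most 6 fragments in any library. Intervals and limits from fragment numbers cover counting error only.

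**Figure D3:**
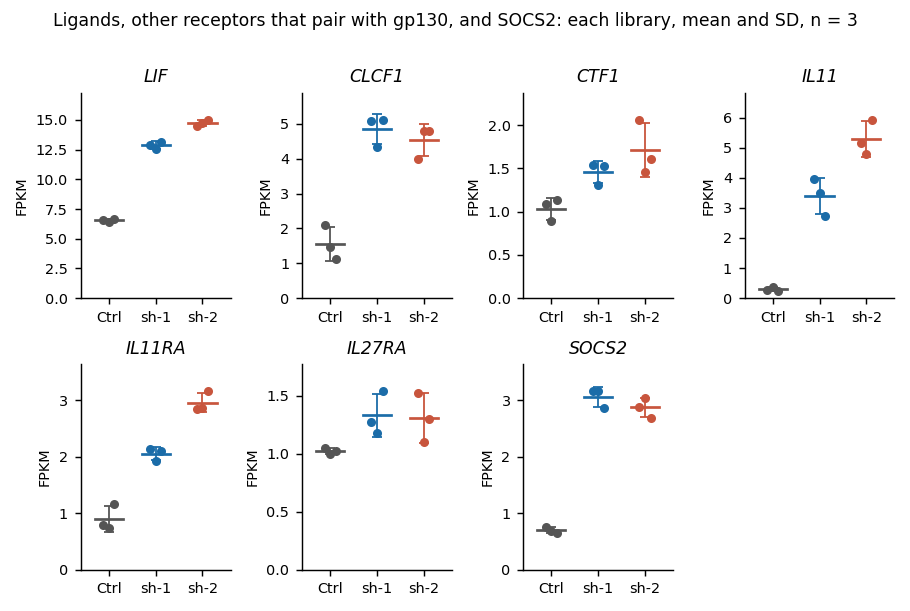
FPKM, on axes from 0, of 4 ligands (LIF, CLCF1, CTF1 and IL11), the 2 tested receptors that pair with gp130, and SOCS2, in the 3 libraries of each group. Points are libraries, lines are means and bars are SD. Every gene shown lies higher in all 6 knockdown libraries than in any control, IL27RA only just.

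Of the other receptors that pair with gp130, IL11RA rose. Its FPKM was 0.795, 0.736 and 1.17 in shCtrl, 2.14, 1.93 and 2.10 with shTRIB3-1, and 2.85, 2.87 and 3.16 with shTRIB3-2. The groups were fully separated, with log2 differences of 1.13 (SE 0.14, adjusted p = 1.03e-05) and 1.64 (SE 0.14, adjusted p = 3.27e-07). In GENCODE v44, 32.5% of the IL11RA exon bases are shared with a same-strand neighbour, and how fragments there were assigned is not given in the sources used here. It too passed the filter mainly through the knockdown libraries. IL27RA, the IL-27 receptor, had log2 differences of 0.34 (adjusted p = 0.0357) and 0.32 (adjusted p = 0.0476). The threshold was lost when any of the 3 shCtrl libraries was left out (adjusted p from 0.0562 to 0.103). It was lost with shTRIB3-1 also without shTRIB3-1 replicate 1 (0.0552) or 3 (0.153), and with shTRIB3-2 also without shTRIB3-2 replicate 1 (0.197) or 3 (0.0912) or shTRIB3-1 replicate 1 (0.0585). The lowest shCtrl library of IL27RA was at 0.999 FPKM, so IL27RA also met the filter through the knockdown libraries. CNTFR had at most 1 fragment in any library.

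Outside the gp130 family, 11 of 15 listed class I and II cytokine receptors were tested, with 4 higher and 4 lower with each hairpin, which is 72.7% past the threshold beside 74.4% and 75.9% of all tested genes. IL4R, the IL-4 receptor chain, had a mean FPKM of 6.84 ± 0.240 in shCtrl, 16.5 ± 0.256 with shTRIB3-1 and 22.3 ± 1.30 with shTRIB3-2 (SD, n = 3), with log2 differences of 1.25 (adjusted p = 2.97e-10) and 1.69 (adjusted p = 1.98e-11). IL2RG, the common gamma chain, changed by 1.78 and 1.84 from 1.145 FPKM, but 51.3% of the IL2RG exon bases are shared with a same-strand neighbour. Its lowest shCtrl library was at 0.754 FPKM, so it met the filter through the knockdown libraries. It is counted among the 4 higher receptors. IL13RA1, the most abundant receptor listed, had log2 differences of -0.10 (adjusted p = 0.0140) and 0.03 (adjusted p = 0.412). The first was past the threshold no longer without shCtrl replicate 2 (-0.09, adjusted p = 0.0574) or shTRIB3-1 replicate 1 (-0.08, adjusted p = 0.0573). Of 7 other JAK and STAT genes, 4 were tested, 1 higher and 2 lower with shTRIB3-1, and 1 higher and 3 lower with shTRIB3-2, where 41.5% and 40.5% of all tested genes were lower. STAT6, the most abundant of these and the effector of IL-4, rose, with a log2 difference of 0.15 (adjusted p = 0.00921) for the first hairpin and 0.22 (adjusted p = 6.49e-04) for the second. The first missed the threshold under TPM rescaling (0.10, adjusted p = 0.0971).

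Of 13 tested SOCS, PIAS and phosphatase genes, 3 were higher and 4 lower with shTRIB3-1, and 4 higher and 3 lower with shTRIB3-2, so 53.8% were past the threshold with each, beside 74.4% and 75.9% of all tested genes. SOCS2, a feedback inhibitor best known from growth hormone signalling, had FPKM of 0.756, 0.690 and 0.653 in shCtrl, 3.16, 3.16 and 2.86 with shTRIB3-1, and 2.89, 3.04 and 2.69 with shTRIB3-2. All knockdown libraries lay above the controls, with log2 differences of 1.98 (adjusted p = 1.41e-09) and 1.90 (adjusted p = 1.68e-09), and SOCS2 passed the filter only through them. PTPN1, the most abundant phosphatase listed, had log2 differences of 0.08 (adjusted p = 0.0531) and 0.03 (adjusted p = 0.456).

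In the branch from PTPN11 to the MAP kinases, all 14 listed adaptors and kinases were tested, with 6 higher and 5 lower with shTRIB3-1, and 8 higher and 4 lower with shTRIB3-2, so 78.6% and 85.7% were past the threshold beside 74.4% and 75.9% of all tested genes. GAB2, a scaffold that binds SHP2, had a mean FPKM of 3.52 ± 0.296 in shCtrl, 7.36 ± 0.113 with shTRIB3-1 and 8.29 ± 0.332 with shTRIB3-2, with log2 differences of 1.05 (adjusted p = 1.59e-08) and 1.22 (adjusted p = 3.29e-09). SHC1, the most abundant adaptor, changed by 0.34 (adjusted p = 4.86e-06) and 0.30 (adjusted p = 1.34e-05). Of 7 genes for receptor shedding and trafficking, 4 were higher and 2 lower with shTRIB3-1, and 5 higher and 2 lower with shTRIB3-2, where 32.9% and 35.4% of all tested genes were higher. RHBDF1, which escorts the sheddase ADAM17, had a mean FPKM of 2.24, 6.42 and 6.91, with log2 differences of 1.49 (adjusted p = 1.88e-08) and 1.60 (adjusted p = 8.35e-09). STUB1, a ubiquitin ligase and the most abundant of the list, had log2 differences of -0.06 (adjusted p = 0.0969) and 0.09 (adjusted p = 0.0242). The second missed the threshold without shCtrl replicate 2 (0.08, adjusted p = 0.0680) or 3 (0.08, 0.0694) or shTRIB3-2 replicate 1 (0.06, 0.109), and 42.5% of STUB1 exon bases have a gene on the other strand.

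Of 13 tested co-factors and modifiers of STAT3, 2 were higher and 8 lower with shTRIB3-1, and 4 higher and 6 lower with shTRIB3-2, so 76.9% were past the threshold with each, beside 74.4% and 75.9% of all tested genes. CEBPD, a transcription factor that acts beside STAT3 on acute-phase genes, had FPKM of 15.0, 14.3 and 18.3 in shCtrl, 5.60, 5.45 and 5.83 with shTRIB3-1, and 4.44, 4.36 and 4.62 with shTRIB3-2. The groups were fully separated, and the log2 difference was -1.47 (adjusted p = 4.94e-09) and -1.80 (adjusted p = 6.92e-10). NDUFA13, a subunit of respiratory complex I that can bind STAT3, had log2 differences of 0.10 (adjusted p = 0.212) and 0.17 (adjusted p = 0.0391). The second missed the threshold without shCtrl replicate 1 (0.07, adjusted p = 0.116) or shTRIB3-2 replicate 1 (0.18, 0.0607) or 2 (0.13, 0.140).

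Of 22 tested STAT3 target genes outside the acute phase, 12 were higher and 8 lower with shTRIB3-1, and 10 higher and 11 lower with shTRIB3-2, where 32.9% and 35.4% of all tested genes were higher and 41.5% and 40.5% lower. KLF6, a zinc finger transcription factor, had a mean FPKM of 41.4 ± 1.93 in shCtrl, 139 ± 4.50 with shTRIB3-1 and 150.0 ± 2.98 with shTRIB3-2, with log2 differences of 1.74 (adjusted p = 4.30e-12) and 1.86 (adjusted p = 1.44e-12). BIRC5 (survivin), an inhibitor of apoptosis that also works in mitosis, changed by -1.61 (adjusted p = 1.15e-10) and -1.91 (adjusted p = 2.06e-11). BCL2L1, an anti-apoptotic gene and the most abundant of the list, rose, with log2 differences of 0.22 (adjusted p = 2.33e-04) and 0.35 (adjusted p = 4.15e-06), and 41.3% of its exon bases have a gene on the other strand.

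The acute-phase genes were lower. Of 27 listed, 25 were among the symbols analysed and 20 were tested. With shTRIB3-1, 20 were lower and none higher, where 41.5% of all tested genes were lower, and 9 of the 20 passed the fold threshold, where 6.1% of all did so as lower. With shTRIB3-2, 18 were lower and none higher, where 40.5% of all tested genes were lower, and 7 passed the fold threshold, where 6.27% of all did. The median log2 difference was -0.92 and -0.48, beside -0.06 and -0.03 over all tested genes. Of the genes named below, HAMP and ITIH4 were under 1 FPKM in every knockdown library and met the filter only through shCtrl. A gene under 1 FPKM in every knockdown library could be tested only if shCtrl was higher, so the filter bears on the count. HAMP and ITIH4 themselves were above 1 FPKM in every shCtrl library, so they would have been tested whichever way they changed. The fall of the acute-phase genes in the same libraries was already known when the list was written, so its count is not independent evidence. The part of the marker shifts given above, which went in both directions within the blood cell and cholangiocyte lists, was not tested.

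Hepcidin (HAMP), the hormone that lowers iron uptake, fell steeply with each hairpin. It had 235 to 244 fragments in the shCtrl libraries, 5 to 12 with shTRIB3-1 and 9 to 13 with shTRIB3-2. Its mean FPKM was 16.4 ± 0.239, 0.693 ± 0.294 and 0.758 ± 0.157 (SD, n = 3), and the log2 difference was -4.46 (adjusted p = 6.18e-09) and -4.28 (adjusted p = 7.42e-09). With a pseudocount of 1 in place of 0.1 it was -3.38 and -3.31, so the size of this fall depends on the pseudocount. SERPINA3, the protease inhibitor antichymotrypsin, had FPKM of 272, 321 and 332 in shCtrl, 19.4, 19.3 and 20.6 with shTRIB3-1, and 21.6, 19.3 and 19.1 with shTRIB3-2. The control and knockdown libraries lay far apart and the hairpins overlapped, with log2 differences of -3.95 and -3.94, and 31.7% of the SERPINA3 exon bases are shared with a same-strand neighbour.

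Haptoglobin (HP), which binds free haemoglobin, had a mean FPKM of 82.6, 6.01 and 7.40, and its log2 difference was -3.76 and -3.47. Its counts may be shared with the near-identical HPR gene. ITIH4, a plasma inhibitor heavy chain, had a mean of 5.32, 0.507 and 0.656 FPKM, with differences of -3.16 and -2.85, and 70.3% of the ITIH4 exon bases are shared with a same-strand neighbour. IL1RN, the antagonist of the IL-1 receptor, changed by -1.998 and -1.296, and CP, the copper carrier ceruloplasmin, by -1.60 with shTRIB3-1 and -1.58 with shTRIB3-2. SERPINA1, the most abundant acute-phase gene by its mean over all 9 libraries, fell to 73.7% of the shCtrl level with shTRIB3-1 (log2 difference -0.44, adjusted p = 2.11e-07) and had a difference of -0.04 (adjusted p = 0.366) with shTRIB3-2, whose sign was the opposite under median centring and quantile normalization.

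**Figure D4:**
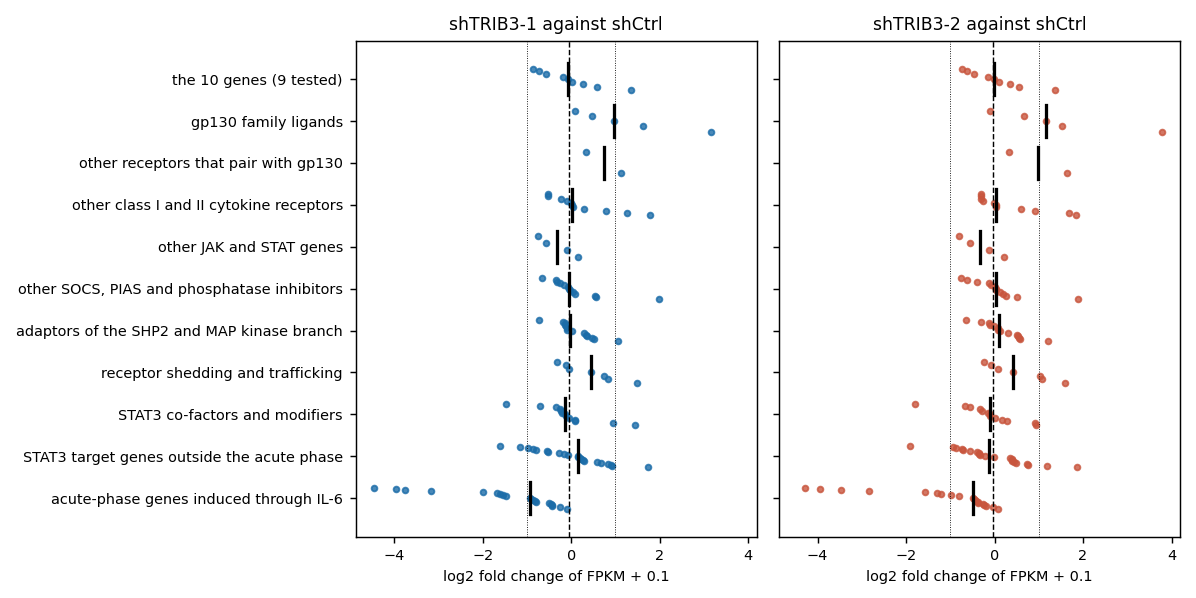
Log2 difference in FPKM + 0.1 from shCtrl (horizontal axis) of each tested gene (points) in the set of 10 genes and in 10 wider lists, with shTRIB3-1 on the left and shTRIB3-2 on the right. Thick bars are list medians, the dashed line is the median of all tested genes (-0.06 and -0.03) and dotted lines mark -1 and 1. The acute-phase list lies mostly to the left, with medians of -0.92 and -0.48, and in it HAMP and ITIH4 met the filter only through shCtrl. The ligand list has medians of 0.96 and 1.16 over the 5 genes that met the filter, which IL11 and CTF1 met through the knockdown libraries, so its position is partly set by the filter.

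Beside the ligand list, whose 4 higher genes of 5 tested compare with 32.9% and 35.4% of all tested genes being higher, a gene such as IL11 could pass the filter only by rising. No count over the ligands is therefore read as a property of the list.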

How the data were processed

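RNA-seq of 9 HepG2 libraries (shCtrl, shTRIB3-1 and shTRIB3-2, 3 each) was analysed from 1 table of FPKM values deposited by the authors, 1 column per library and 1 line per symbol. STAR served as aligner, with GRCh38 as reference and paired-end reads as input, and the authors ran DESeq2 (study methods). The submitters' processing notes name HTSeq and R 3.2.0. The annotation release and strand setting are not given in the sources used here, and the methods and labels name different library kits. FPKM does not correct for composition, so a rise of abundant genes lowers other values.

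Fragment numbers were solved from the FPKM values, as 1 length per gene and 1 total per library; 100% of 172769 values above 0 came within 0.02 of a whole number. Pairs of replicates differed by more than sampling noise (chi-square per degree of freedom 3.15 to 7.61 over genes with at least 10 fragments), so each library was counted once.

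Genes with FPKM of at least 1 in at least 3 libraries (11265) were fitted as log2(FPKM + 0.1) with limma 3.58.1 in R 4.3.3, as 3 group means, with moderated variances and a trend of variance on level. Two-sided p-values were Benjamini-Hochberg adjusted over all tested genes. A gene passed at an adjusted p under 0.05, and with the fold threshold at an absolute log2 difference above 1. The fit was tested on simulated data. A count model was not used, as the deposited values are FPKM. The fragment numbers solved from them could have served for such a model but were not fitted.

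The 10 genes and the wider lists were chosen with earlier results of these data known, and the lists come from general knowledge. Named beside the 10 genes were every gp130 ligand and partner receptor except 1 ligand not reported here, and in the other lists at most 6 genes past both thresholds in the same direction with each hairpin, plus the most abundant gene of each list. For likeness, the 3 nearest genes were named. Alternatives were a pseudocount of 1, no filter, TPM rescaling, median centring, quantile normalization, 2 groups only, a replicate block, no trend and leaving out each library. Windows and gene models are from GENCODE v44 on hg38.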

Additional observations from a re-analysis of the deposited data

Results flagged for a closer look

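Each result here was picked out because the effects of the 2 hairpins differed from each other, by limma on all 9 libraries (shTRIB3-2 minus shTRIB3-1 on the log2 scale, adjusted p under 0.05, as for 45.8% of all tested genes). TRIB3 itself differed by -0.71. Among the 10 genes, IL6ST differed by 0.17 and TYK2 by 0.26. Of ligands and receptors, IL11 differed by 0.63, LIF by 0.20, IL11RA by 0.50, IL4R by 0.44 and IL13RA1 by 0.13. GAB2 differed by 0.17, STUB1 by 0.15 and CEBPD by -0.33. Of STAT3 targets, KLF6 differed by 0.12, BCL2L1 by 0.13 and BIRC5 by -0.31. Of acute-phase genes, HP differed by 0.29, ITIH4 by 0.31, SERPINA1 by 0.41 and IL1RN by 0.70. Each was higher with shTRIB3-2, the hairpin with the lower TRIB3 level. Against shCtrl, these acute-phase genes and TYK2 changed less with shTRIB3-2. IL11, LIF, IL11RA, IL4R, GAB2, KLF6, BCL2L1, CEBPD and BIRC5 changed more with it. Leaving out 1 knockdown library cost some of these genes the threshold (adjusted p up to 0.145 for GAB2, 0.0879 for KLF6, 0.0770 for BCL2L1, 0.0664 for HP and 0.0687 for ITIH4). Other alternatives also lost it: median centring for GAB2 (0.0730), KLF6 (0.149) and BCL2L1 (0.130), quantile normalization for GAB2 (0.0685), no trend for KLF6 (0.0663), and no filter for GAB2 (0.0808), KLF6 (0.0657), BCL2L1 (0.0535) and HP (0.0649). ITIH4 lost it with 2 groups only (0.114) and with a pseudocount of 1 (0.0592), where its difference was 0.14. No cause of these differences was tested.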

How the results depend on the processing

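The number of the 9 genes past the adjusted p was 6 to 8 with shTRIB3-1, 7 to 8 with shTRIB3-2 and 2 to 3 between hairpins over all alternatives, and IL6R passed the fold threshold in each comparison with shCtrl in all of them. Genes called among all tested with shTRIB3-1 numbered 1294, but 780 with a pseudocount of 1 and 1999 without the filter. With shTRIB3-2 they numbered 1389, but 888 with a pseudocount of 1. Between hairpins they numbered 234, but 84 with a pseudocount of 1 and 417 without the filter. A larger pseudocount shrinks low values by construction, and the filter sets how many low genes are tested. Leaving out 1 library gave 1258 to 1333, 1385 to 1426 and 234 to 247.

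Signs turned only for small differences, none of which passed as first computed. IL6ST with shTRIB3-1 was 0.017 under median centring, and under TPM rescaling it was -0.12 (adjusted p = 0.02003), which passed. PTPN11 with shTRIB3-1 was -0.043 under TPM rescaling and -0.010 to 0.054 with 1 library left out, and 0.09 (adjusted p = 0.0477) under median centring, which passed. PTPN11 with shTRIB3-2 was 0.040 under median centring, 0.0084 under quantile normalization and -0.022 to 0.0043 with 1 library left out. Between hairpins under TPM rescaling, IL6R was 0.029, JAK1 0.0046 and PTPN11 0.0078. Leaving out 1 library gave -0.033 to 0.022 for IL6R and -0.045 to 0.0032 for JAK1. STUB1 with shTRIB3-1 was 0.018 under median centring, and NDUFA13 -0.0049 to 0.16 with 1 library left out. SERPINA1 with shTRIB3-2 was 0.016 under median centring and 0.12 (adjusted p = 0.0164) under quantile normalization, which passed. OSMR between hairpins passed under quantile normalization (-0.09, adjusted p = 0.0408). JAK2 with shTRIB3-1 also missed the threshold without the filter (adjusted p = 0.0567) and under TPM rescaling (0.0927), and IL6ST with shTRIB3-2 under TPM rescaling (0.0886). The cause was not tested.

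The labels give replicate numbers 1 to 3 in each group. Deviations of libraries with the same number correlated at -0.07 to 0.09, so the numbers were not taken as pairs. With the replicate block, 1295, 1389 and 234 genes were called and 7, 8 and 2 of the 9 genes passed. Depth limited IL6, OSM, EBI3 and CNTFR, which rest on few fragments, and SOCS3, with 50 to 99 fragments a library, was below the filter.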

Other observations

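Other members of the same lists, singled out after their values were seen, changed alike with each hairpin. STAT2, which carries interferon signals, changed by -0.75 and -0.80. PTPN6, the phosphatase SHP1 that removes phosphate from JAK kinases, changed by -0.66 and -0.77 from 6.14 FPKM. LEPR, the leptin receptor, which also signals through STAT3, changed by 0.79 and 0.91 from 1.88 FPKM, and CCND1 (cyclin D1) by -0.99 and -0.95 from 75.1 FPKM.

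The fibrinogen chains, abundant acute-phase proteins of the liver, fell with each hairpin and less with shTRIB3-2. FGA had a mean FPKM of 1056 in shCtrl, 359.98 with shTRIB3-1 and 529 with shTRIB3-2, and the difference between hairpins was 0.56 (adjusted p = 2.99e-06). FGB differed by 0.45 (adjusted p = 9.46e-06) and FGG by 0.46 (adjusted p = 2.37e-05). SAA4, a constitutive serum amyloid, was at 1.84 FPKM in shCtrl, 0.599 with shTRIB3-1 and 2.02 with shTRIB3-2, and differed by 1.56 between hairpins (adjusted p = 4.23e-05). SOCS1 had log2 differences of -0.06 (adjusted p = 0.538) with shTRIB3-1 and -0.63 (adjusted p = 1.55e-05) with shTRIB3-2.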
